A study of Mus musculus with 31 samples.

Results

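The genes described here build the membrane and the inner skeleton of the lens fibre cell, and were chosen by name. They are Mip, Lim2, Bfsp1, Bfsp2, Gja3, Lgsn and Birc7, 7 genes with 1 probe each among the 55681 distinct probes of the array. RNA came from eyes of embryos at embryonic day (E) 13.5, each freed of its pigmented epithelial layer, and each eye is 1 sample. The comparison concerned Ftx, a long non-coding RNA gene of the X-inactivation centre: 3 eyes were from WT females, 3 from WT males, 3 from hemizygous mutant males (Ftx-/Y, called Ftx KO males below) and 11 from homozygous mutant females (Ftx-/-, called Ftx KO females). All mice were on a pure C57BL/6N background, every eye looked normal from outside, and the targeted allele also lacks the microRNAs miRNA374 and miRNA421, so that the groups differ in these as well as in Ftx. The arrays analysed here are 31 for 20 eyes, with 2 for each Ftx KO female eye, which were averaged, and 1 for every other eye. The study's methods also name another WT female eye and duplicate arrays for all eyes, which are not analysed here. The labels do not tie eyes to litters, and where eyes came from littermates the p-values treat them as independent.

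Lens fibre cells arise when cells at the back of the lens vesicle, and later at the equator of the lens, stop dividing and elongate. They fill with crystallins, lose their organelles and pack into a tissue without blood vessels, so they depend on membrane channels and on close contact between neighbours. Mip (aquaporin 0) is the main water channel and an adhesion protein of the fibre membrane, and Lim2 (MP20) is another abundant integral protein of that membrane. Gja3, a connexin, forms the gap junctions through which fibres share ions and small molecules. Bfsp1 (filensin) and Bfsp2 (phakinin, CP49) assemble together into the beaded filament, an intermediate filament found in lens fibres. Lgsn (lengsin) is a lens protein related to glutamine synthetase, and Birc7 (livin) belongs to the family of inhibitor of apoptosis proteins.

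The array measures each transcript with a probe of 60 bases. The opening 30 bases of each are shown because every value below rests on them, with the position and strand that the array's annotation gives in mm9. The annotated span of the Lim2 probe is 488 bases and that of the Bfsp2 probe 30 bases, so for these the position does not mark 1 unbroken stretch of 60 bases.
Mip (A_52_P660422, chr10:127668747-127668806, plus strand): cttcctgtatataccttgccagctttaaaa
Lim2 (A_51_P487028, chr7:50685484-50685971, plus strand): ggctgtggcagaaggagggctcagaacaga
Bfsp1 (A_55_P2003903, chr2:143652265-143652324, minus strand): tctgcattgcaggtgacctccaatgacctt
Bfsp2 (A_51_P298802, chr9:103327254-103327283, minus strand): agagaattctgctcccatttctgtagtctg
Gja3 (A_55_P2171912, chr14:57654750-57654809, minus strand): aaaccacccagtcaaacactgcaatggcca
Lgsn (A_55_P1996633, chr1:31261510-31261569, plus strand): ctcggatcctgatctcagctataaacaata
Birc7 (A_55_P1998456, chr2:180667976-180668035, plus strand): cagctgtgccctatctgcagggtgcctatc

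Normalized signals were compared on the log2 scale with limma over all 20 eyes, and a probe was called when its adjusted p was under 0.05. The 5 probes for Mip, Lim2, Bfsp1, Bfsp2 and Gja3 were well above background on all 31 arrays and passed the minimum, a mean signal over the 4 groups above 100, as did 21794 probes in all. None was saturated. The Birc7 probe was well above background on all 31 arrays but its mean signal of 76.8 was under the minimum. The Lgsn probe was well above background on 0 of 31 arrays, so no level of Lgsn was measured. Ftx has 2 probes, both under the minimum, and the brighter separated WT from Ftx KO eyes. The brighter read between 50.1 and 134 in the 3 WT females and between 101 and 110.4 in the 3 WT males. It read 13.2 to 18.6 in the Ftx KO males and 8.24 to 37.4 in the Ftx KO females, where 9 of 22 arrays still rose well above background. The dimmer read 23 to 49.6 in WT females against 6.37 to 20 in Ftx KO females. In males it overlapped, at 13.8 to 22.1 in WT and 6.38 to 18.6 in Ftx KO eyes.

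In Ftx KO females, Lim2, Bfsp1, Bfsp2 and Gja3 were lower than in WT females, and Mip was lower by less and did not pass the test. The log2 differences of the 4 lay between -1.11 and -0.86, that of Gja3 being -1.02 with the eyes of slide 3 and -0.62 without them. No member was higher. Thus 4 of the 5 genes tested fell, where 16.1% of all 21794 probes tested were lower and 16.5% were higher, and their median log2 difference was -1.02 where that of all probes was -0.01. With a term for the slide or the scan, 0 of the 5 were called, and nearly all other calls were lost too, while the median difference of the 5 was -1.04 with the slide and -1.11 with the scan. Gja3 alone of the 4 was much nearer to 0 with the slide, at -0.44 (limma adjusted p = 0.546). In Ftx KO males the same 5 genes had log2 differences between -0.16 and -0.00, and none passed. Less lens fibre RNA per cell and fewer fibre cells per eye cannot be told apart in RNA of whole eyes.

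**Figure D1:**
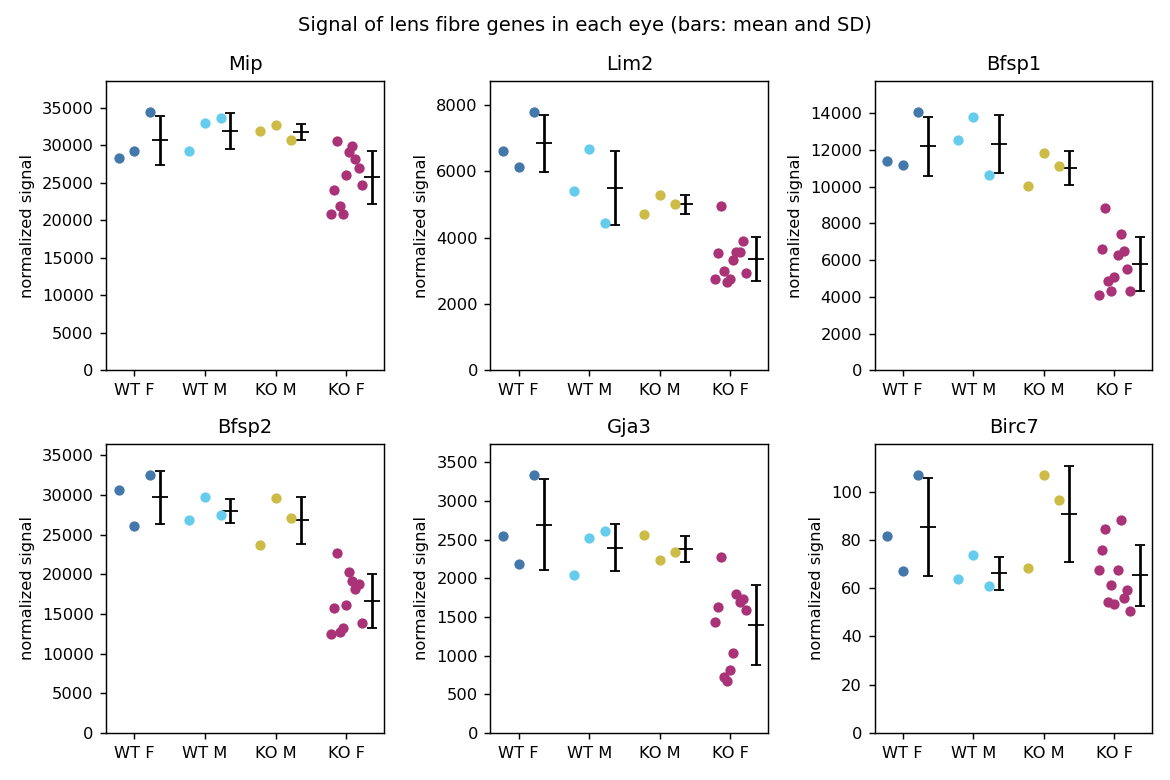
Normalized signal (linear scale from 0) of 6 genes in each of the 20 eyes, by group (WT F, WT females; WT M, WT males; KO M, Ftx KO males; KO F, Ftx KO females). Points are eyes and bars give the mean and SD. For Lim2, Bfsp1 and Bfsp2 every Ftx KO female eye lies under every WT female eye, whereas for Mip, Gja3 and Birc7 the groups overlap. The share of all probes without overlap was not counted.

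Among the membrane proteins, Lim2 had signals of 6623, 6120.3 and 7793 in the WT female eyes. In the 11 Ftx KO female eyes its signal was 2677 at the lowest, 3332 at the median and 4942 at the highest. All 11 eyes were thus under every WT female eye. How many of all probes separate the female groups in this way was not counted, here or for the genes below. The log2 difference was -1.04 (standard error 0.15, limma adjusted p = 0.000116), a 2.06-fold lower signal. In males Lim2 read 5409, 6667 and 4430.3 in WT males and 4713, 5294 and 5025 in Ftx KO males. These groups overlapped, with a log2 difference of -0.12 (95% interval -0.51 to 0.28, limma adjusted p = 0.841).

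Mip, the water channel, had a strong signal in every eye. It read 28374, 29235 and 34443 in WT females, and between 20795 and 30532 with a median of 26091 in Ftx KO females. The groups overlapped, since 3 of the 11 Ftx KO female eyes reached the WT female range, although none exceeded the WT female mean. The log2 difference of -0.26 (standard error 0.11) missed the threshold (limma adjusted p = 0.0719, unadjusted p = 0.0268), and its 95% interval ran from -0.49 to -0.03. In males Mip read 29197, 32916 and 33610 in WT eyes and 31925, 32722 and 30693 in Ftx KO eyes, which lay inside the WT range. The difference was -0.00 on the log2 scale (95% interval -0.29 to 0.28). Within the membrane genes the female difference of Mip was therefore the smallest, and the difference between probes was not tested.

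Gja3, the gap junction subunit, varied most among Ftx KO females. Its signals in WT females were 2547, 2189.6 and 3338. In Ftx KO females they ran from 675 through a median of 1589.9 to 2279, a 3.37-fold range. The groups overlapped through Ftx KO female eye 3 alone, which at 2279 stood above the lowest WT female eye. The log2 difference was -1.02 (standard error 0.29, limma adjusted p = 0.0127). This call rested on WT female eye 4, the highest, since without it the difference was -0.86 with an adjusted p of 0.0781. In males Gja3 read 2047, 2523 and 2616 in WT and 2559, 2241 and 2334 in Ftx KO eyes, a log2 difference of -0.00 (95% interval -0.78 to 0.77) with the Ftx KO eyes inside the WT range.

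The beaded filament genes fell together. Bfsp1 read 11386, 11192 and 14078 in WT females and had a lowest signal of 4101, a median of 5494 and a highest of 8825 in Ftx KO females. No Ftx KO female eye reached a WT female eye. Its log2 difference was -1.11 (standard error 0.18, limma adjusted p = 0.000288), a 2.16-fold lower signal. Bfsp2, its partner in the filament, read 30596, 26039 and 32558 in WT females and 12417 to 22632, with a median of 16082, in Ftx KO females. These groups did not overlap either, and the log2 difference was -0.86 (standard error 0.15, limma adjusted p = 0.000491), a 1.81-fold lower signal.

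In males the beaded filament genes showed no such separation. Bfsp1 was at 12538, 13809 and 10658 in WT males and at 10058, 11856 and 11154 in Ftx KO males. All 3 Ftx KO eyes lay under the WT male mean but the ranges overlapped, and the log2 difference was -0.16 (95% interval -0.63 to 0.32, limma adjusted p = 0.818). Bfsp2 was at 26799, 29695 and 27493 in WT males and at 23715, 29577 and 27119 in Ftx KO males, a difference of -0.07 (95% interval -0.46 to 0.33). The intervals for males thus leave room for a fall of Gja3, Bfsp1, Lim2 or Bfsp2 by up to 0.78, 0.63, 0.51 or 0.46 on the log2 scale, with 3 eyes per group. Over all probes 0% were called in males in each direction, and 2785 of 21794 had an unadjusted p under 0.05, none of them a probe of these genes.

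Birc7 had a dim signal. It read 81.7, 67.1 and 107 in WT females, and between 50.6 and 88.2 with a median of 61.2 in Ftx KO females. In males it read 63.6, 73.7 and 61 in WT eyes and 68.4, 107 and 96.4 in Ftx KO eyes. The female groups overlapped, and so did the male ones. When the minimum was lifted, its log2 difference was -0.38 in females (standard error 0.20, limma adjusted p = 0.206) and 0.43 in males (standard error 0.25, limma adjusted p = 0.473). Lgsn signals were between 6.4 and 21.8 in all 20 eyes, a range in which no array stood well above background, and no fold is given.

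The sexes were compared within each genotype. In WT eyes none of the 5 genes differed between females and males, where 0.252% of all probes were called in either direction, and the log2 difference of females minus males lay between -0.06 for Mip and 0.33 for Lim2 (unadjusted p = 0.0974 for Lim2, and higher for the others). Among Ftx KO eyes, 3 of the 5 were lower in females, where 1.7% of all probes were called in either direction. These were Bfsp1 (log2 difference -0.96, limma adjusted p = 0.0106), Bfsp2 (-0.71, limma adjusted p = 0.0227) and Lim2 (-0.60, limma adjusted p = 0.0465). Gja3 (-0.87) and Mip (-0.32) missed the threshold, although all 11 Ftx KO female Mip signals were under those of all 3 Ftx KO males. The share of all probes that separate the Ftx KO sexes in this way was not counted. The number called was 0 with a term for the slide, 1 with one for the scan and 0 with a replicate block. It was also sensitive to single eyes: leaving out Ftx KO male eye 1 gave 1 gene, and leaving out eye 2 or eye 3 gave 0.

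Whether genotype acted differently in the sexes was tested directly, as an interaction (female change minus male change). It was -0.93 for Lim2, -0.95 for Bfsp1, -0.79 for Bfsp2, -1.02 for Gja3 and -0.26 for Mip on the log2 scale. The 95% intervals of the 4 larger ones did not reach 0, and their unadjusted p-values from limma were 0.00106, 0.00403, 0.00414 and 0.0439. After adjustment over all probes none of the 5 passed (limma adjusted p between 0.176 and 0.532), and neither did any other probe (0%), of which 2920 had an unadjusted p under 0.05. A change that differs between the sexes is therefore not established for these genes by the adjusted test.

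**Figure D2:**
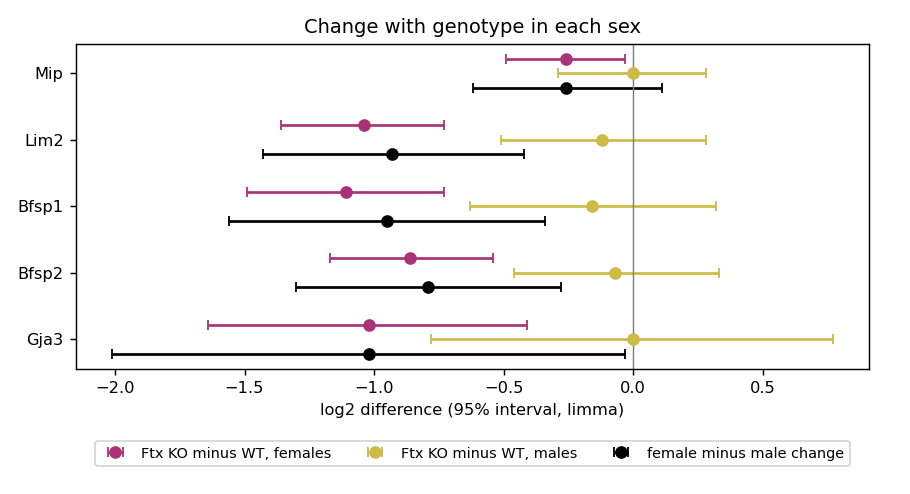
Log2 difference of Ftx KO minus WT in females and in males, and the female minus the male change, for the 5 genes that passed the minimum. Points are limma estimates and bars their 95% intervals. The female estimates of Lim2, Bfsp1, Bfsp2 and Gja3 lie between -1.11 and -0.86, while the male estimates lie between -0.16 and -0.00.

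The 31 arrays were on 4 slides, and slide and genotype were not separate. Slide 1, scanned apart from the others, held all WT eyes and Ftx KO male eye 1, slide 2 held Ftx KO males 2 and 3 with Ftx KO females 1 to 3, and slides 3 and 4 held the remaining Ftx KO females. No slide held both WT and Ftx KO females, so a term for the slide could be set only through the Ftx KO males. With it the female differences were -1.04 for Lim2, -1.16 for Bfsp1, -1.11 for Bfsp2 and -0.44 for Gja3, and 0 of the 5 genes passed (limma adjusted p between 0.167 and 0.546 for these 4). In that fit 0.0596% of all probes were lower and 0.101% higher in Ftx KO females. With a term for the scan the differences were -1.17 for Lim2, -1.30 for Bfsp1, -1.11 for Bfsp2 and -0.86 for Gja3, and 0 of the 5 passed as well (limma adjusted p between 0.155 and 0.584 for these 4), where 0.0505% of all probes were lower and 0.078% higher. On slide 2 alone, Ftx KO females were lower than Ftx KO males by 0.51 for Lim2, 0.89 for Bfsp1, 0.79 for Bfsp2, 0.39 for Gja3 and 0.35 for Mip, without a test. On slide 1 alone, Ftx KO male eye 1 differed from the WT males by -0.20 for Lim2, -0.29 for Bfsp1, -0.24 for Bfsp2, 0.10 for Gja3 and 0.00 for Mip.

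Gja3 showed the clearest step between slides among the Ftx KO females. Its 4 eyes on slide 3 read 721, 675, 818 and 1036, under all the other Ftx KO female eyes. The mean of these eyes was 1.73 below that of the WT females on the log2 scale, where the eyes of slides 2 and 4 were 0.60 and 0.64 below. Without slide 3, a choice made after the values were seen, Gja3 differed by -0.62 (limma adjusted p = 0.00357), and 4 of the 5 genes were still called lower. With the 3 Ftx KO female eyes of slide 2 only, 4 were also called lower. The share of all probes called in these fits was not counted. For Lim2, Bfsp1, Bfsp2 and Mip the slides differed less, with Lim2 at -0.91, -1.22 and -0.97 and Bfsp2 at -0.85, -0.95 and -0.77 on slides 2, 3 and 4. The part of the slide in the Gja3 values was not tested.

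**Figure D3:**
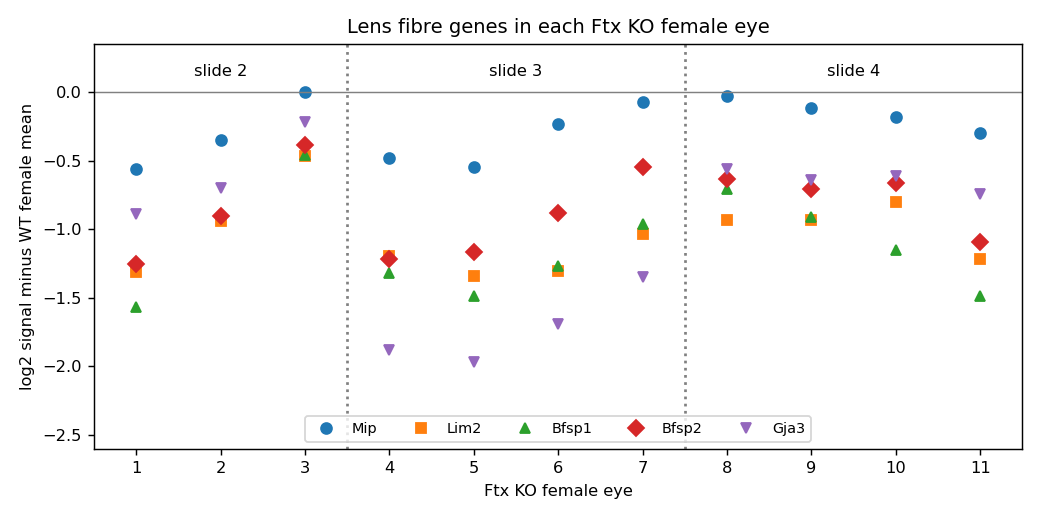
Log2 signal of each Ftx KO female eye minus the mean of the 3 WT female eyes, for 5 genes, with the eyes grouped by slide. Eye 3 is the highest for each of the 5 genes, and Gja3 on slide 3 stands lower than on slides 2 and 4.

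The Ftx KO female eyes kept much the same order from gene to gene. Eye 3 had the highest signal of all 5 genes. Eye 1 had the lowest signal of Mip, Bfsp1 and Bfsp2, and eye 5 that of Lim2 and Gja3. Bfsp1, for example, read 8825 in eye 3, 6582 in eye 2 and 4101 in eye 1, which shared slide 2. When each eye was expressed as its deviation from its group's mean, the Pearson correlation over the 20 eyes was between 0.55 and 0.88 for the 10 pairs of genes, highest for Mip with Bfsp2 and lowest for Bfsp2 with Gja3. These correlations describe eyes that share arrays and normalization, and carry no test. Leaving out eye 3, a choice made after the values were seen, gave 5 genes lower in Ftx KO females, Mip included (log2 difference -0.29, limma adjusted p = 0.042). The share of all probes called in that fit was not counted. The 2 arrays of an eye differed by a median of 0.05 to 0.11 on the log2 scale for these 5 genes, against an SD among the 11 eyes of 0.20 to 0.60.

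The same deviations were used to find the probes whose pattern over the 20 eyes was most like the mean of the 5 genes. The 5 most similar named genes outside the group were Lenep (r = 0.958), Tmem40 (0.920), 1500009C09Rik (0.909), Cryba4 (0.907) and Crybb1 (0.895). Lenep is a protein of the lens epithelium by name, and Cryba4 and Crybb1 are beta crystallins of the fibres. In Ftx KO females Lenep differed by -1.04 and Tmem40 by -0.56 on the log2 scale. Here Cryba4 refers to a dimmer probe than the one used for the gene below.

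Other genes of the lens were grouped by role, and their counts stand beside 16.1% of all probes lower and 16.5% higher in Ftx KO females. Of 7 alpha and beta crystallins that passed the minimum, which are the soluble refractive proteins of fibres, 5 were lower in Ftx KO females and 0 higher, with a median log2 difference of -0.46. Cryba1 (-0.27, limma adjusted p = 0.00901), Crybb3 (-0.33, limma adjusted p = 0.0466) and Cryba4 (-0.50, limma adjusted p = 0.0267) fell, while Cryaa, the brightest probe of the list, differed by 0.06 (limma adjusted p = 0.558). The probes of Cryaa disagreed, since a dimmer one fell by 0.81 (limma adjusted p = 0.00121). Of 8 gamma crystallins, which accumulate in the elongating fibres, 7 were lower and 0 higher, with a median of -0.47. Crygd fell by 0.54, Cryga by 0.40 and Crygc by 0.39 on the log2 scale, and Cryge differed by -0.12 (limma adjusted p = 0.439). Of the 3 Crygc probes, 1 missed the threshold (-0.44, limma adjusted p = 0.0544). Near-identical gamma crystallin genes may share signal on these probes. These values are those of each gene's brightest probe, and the dimmer probes of Cryba4 and Crygf differed by more (-0.77 and -0.80, against -0.50 and -0.60), so the medians depend on the choice of probe. None of the 15 crystallin probes was flagged as saturated on any array.

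Of 9 other fibre genes that passed the minimum, 2 were lower, 0 were higher and the median was -0.14, a count near the 16.1% of all probes that were lower. Those lower, named after their values were seen, were Grifin (a galectin-related lens protein, log2 difference -0.89, limma adjusted p = 0.000211) and Epha2 (a receptor at the fibre membrane, -0.45, limma adjusted p = 0.00528). The 4 brightest differed by 0.02 for Vim (vimentin, the general intermediate filament), -0.14 for Cdh2 (N-cadherin), -0.18 for Caprin2 and -0.31 for Tdrd7, and none of these passed. The other Caprin2 probe, slightly dimmer, was lower (-0.40, limma adjusted p = 0.0267). Gja1, a connexin of the lens epithelium and many other cells that was also named after its value was seen, differed by 0.34 (limma adjusted p = 0.293).

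Of 9 transcription factors and other regulators with roles in the lens, 5 were lower and 1 was higher in Ftx KO females, with a median log2 difference of -0.64. Over all probes 16.1% were lower and 16.5% higher. The 5, all but Sox1 named after their values were seen, were Hsf4 (-0.99), Foxe3 (-0.93), Prox1 (-0.84), Sox1 (-0.69) and Pitx3 (-0.64), with limma adjusted p-values of 0.00093, 0.000438, 0.00424, 0.00119 and 0.000198. Prox1, Sox1 and Hsf4 act in fibre differentiation, Foxe3 in the lens epithelium and Pitx3 in both. Mab21l1, which lens formation needs, was higher (0.35, limma adjusted p = 0.0323). Of the 4 brightest, Sox1 was thus lower, and Six3 (-0.40), Pax6 (-0.27) and Maf (-0.05), which the retina or other eye tissues also make in part, did not pass. A much dimmer Pax6 probe was lower (-0.91, limma adjusted p = 0.000664). Between Ftx KO females and Ftx KO males 0 of the 9 were called (median -0.34), where 1.7% of all probes were called in either direction. WT females were above WT males by a median of 0.20 over the 9, and by 0.59 for Foxe3 and 0.40 for Pitx3, with none called. In Ftx KO males 0 genes of these lists passed in either direction, where 0% of all probes did. The male medians were 0.05 for alpha and beta crystallins, 0.02 for gamma crystallins, -0.01 for other fibre genes and 0.03 for the regulators. Cryba4 and Mab21l1 nevertheless differed in males by -0.46 and 0.46 (limma adjusted p = 0.361 and 0.242).

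**Figure D4:**
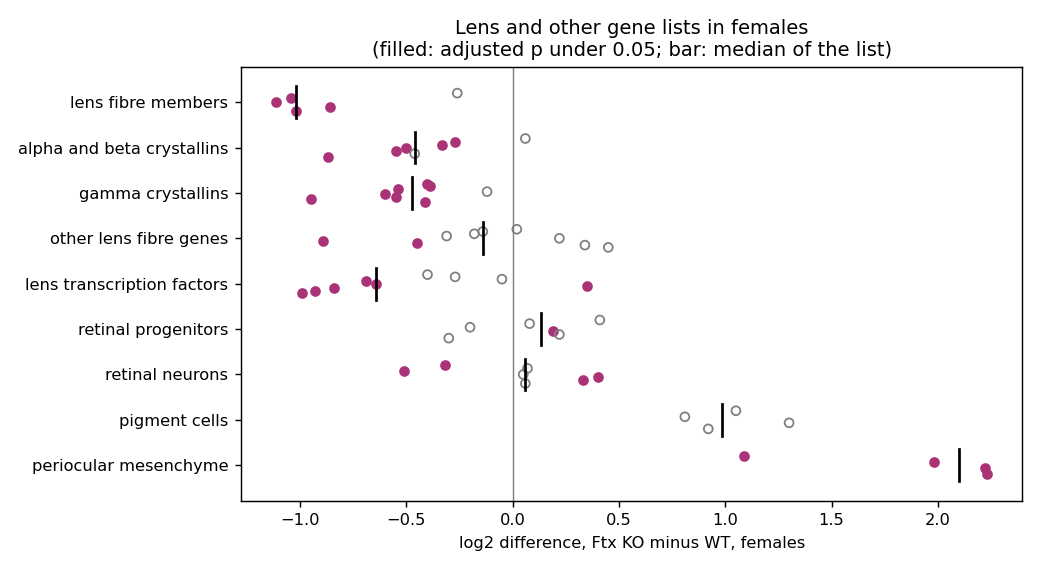
Log2 difference of Ftx KO minus WT females for each gene that passed the minimum, by list. Filled points have an adjusted p under 0.05 in limma, open points do not, and bars mark the median of each list. The lens fibre members have a median of -1.02, and the periocular mesenchyme genes one of 2.10.

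Markers of tissues around the lens were examined as well. Of 7 periocular mesenchyme markers 4 passed the minimum, and all 4 (Foxc1, Col1a1, Col1a2 and Col3a1) were higher in Ftx KO females, with a median log2 difference of 2.10. Over all probes 16.5% were higher. The summed signal of all 7 was 3475 to 4863 in WT females, 4712 to 10478 in WT males, 4159 to 7752 in Ftx KO males and 5149.7 to 36373 in Ftx KO females. Among the Ftx KO females the sum was highest in eyes 1 and 5, at 36373 and 20138, the eyes with the lowest summed signal of the members (41559 and 41826), and was 7782 in eye 3, which had the highest (69305). It was lowest in eyes 7, 9 and 10, at 5366, 5338 and 5149.7, and their summed signal of the members was 60141, 58112 and 56879, where that of the WT females was 74851 to 92323. Pigment cell markers, of which 4 of the 7 on the array passed, had a median of 0.98 with none called, and sums of 3902 to 6115 in WT females, 6875 to 11104 in WT males, 3743 to 6093 in Ftx KO males and 2213 to 30467 in Ftx KO females. In males the 4 had a median of -0.79, with none called. The part of these tissues in the lens values was not tested.

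Other tissues were counted in the same way over the markers that passed the minimum, and in females the small counts below are to be read against the 16.5% of all probes that were higher and the 16.1% that were lower. Of 6 retinal progenitor markers 1 was higher and 0 lower, with a median of 0.13. Of 7 retinal neuron markers 2 were higher and 2 lower, with a median of 0.06. Among 5 erythroid markers 2 were higher, among 5 macrophage markers 2 were higher (Cx3cr1, and Mrc1, which passed the minimum only through the Ftx KO females), among 5 surface ectoderm markers 1 was higher, and of 5 endothelial markers and 1 muscle marker none was called. No marker of these other tissues was called in Ftx KO males, where no probe of the array was. The 5 erythroid markers were nevertheless 0.83 to 1.03 above WT males on the log2 scale, each with an unadjusted p under 0.05, and the summed signal of all 6 on the list was 153420.2 to 189595 in WT males and 219221 to 480523 in Ftx KO males. The part of blood in the male values was not tested.

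The fold and p limits of the study gave a like count, here over probes with a mean signal above 100, a lower minimum than the study's. By the methods' t-test on linear signal, with a fold under 0.8 and an unadjusted p under 0.05, Lim2, Bfsp1, Bfsp2 and Gja3 were lower in Ftx KO females, where 10.4% of all probes were. After Benjamini-Hochberg adjustment over all probes, 3 of these remained. The share of all probes under the adjusted rule was not counted, and the 10.4% does not apply to it.

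The stretch of 250 bases before the transcription start is shown for the 4 genes that fell, because they moved together. Sequences are from RefSeq on GRCm38.p6, 5′ to 3′ on the gene's strand, and for Gja3, which has 2 starts in the table, the one farther upstream is shown. Capitals mark matches on either strand to any of 4 short motifs. These were TGCTGAC (the core of the Maf recognition element), GAANNTTC (the heat shock element), CTTTGT (the core of SOX sites) and TATAAA (the TATA box), and no matches overlapped.
Lim2 (chr7:43429849-43430098, plus strand): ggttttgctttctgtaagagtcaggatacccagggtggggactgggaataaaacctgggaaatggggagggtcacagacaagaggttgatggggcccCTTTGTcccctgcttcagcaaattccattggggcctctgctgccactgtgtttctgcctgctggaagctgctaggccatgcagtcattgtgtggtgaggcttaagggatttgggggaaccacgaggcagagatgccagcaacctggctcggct
Gja3 (chr14:57058031-57058280, minus strand): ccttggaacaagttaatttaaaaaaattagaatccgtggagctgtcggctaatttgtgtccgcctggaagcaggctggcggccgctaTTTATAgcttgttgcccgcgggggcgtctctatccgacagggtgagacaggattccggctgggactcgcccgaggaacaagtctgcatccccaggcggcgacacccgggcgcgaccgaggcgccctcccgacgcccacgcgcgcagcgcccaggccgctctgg
Bfsp1 (chr2:143863174-143863423, minus strand): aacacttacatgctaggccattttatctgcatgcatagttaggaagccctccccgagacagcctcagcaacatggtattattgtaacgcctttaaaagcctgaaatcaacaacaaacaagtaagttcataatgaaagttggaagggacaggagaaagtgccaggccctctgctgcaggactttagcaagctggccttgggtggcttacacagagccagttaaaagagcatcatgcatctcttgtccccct
Bfsp2 (chr9:103449177-103449426, minus strand): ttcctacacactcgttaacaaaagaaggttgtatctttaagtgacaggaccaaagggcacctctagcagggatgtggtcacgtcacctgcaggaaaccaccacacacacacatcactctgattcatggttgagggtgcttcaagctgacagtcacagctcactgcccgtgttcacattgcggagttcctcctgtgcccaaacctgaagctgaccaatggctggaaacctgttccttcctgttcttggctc

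Of these 4 sequences, that of Lim2 held 1 SOX core, that of Gja3 held 1 TATA box on the opposite strand, and those of Bfsp1 and Bfsp2 held none of the 4 motifs. Over 32851 promoters of the same length, 16.5% held the SOX core, 12.4% the TATA box, 6.69% the heat shock element and 3.81% the Maf core. No motif was thus held by more than 1 of the 4 stretches. The absence of a match says only that these letters were not in this window.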

How the data were processed

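The authors deposited, for 31 one-colour arrays of 20 eyes, the intensity of each of 62976 spots after background subtraction (Feature Extraction 11.0.1.1 per the file headers), and a series table of the same intensity values, not normalized between arrays (largest difference 0.498%), used on the log2 scale as an alternative. From these, signals were normalized with the quantile-spline method that the study's methods name, written out in R 4.3.3, flagged spots (120 non-uniform, 5639 population outliers over all arrays) were left out, spots of a probe and arrays of an eye were averaged, and the 21794 probes with a mean signal over 100 were tested with limma 3.58.1 (trend, 4 groups, Benjamini-Hochberg). Of these, 26 lack a value in some eye, none of them a probe of the genes named here. The brightest probe stood for each gene. Precision is limited by how few eyes each group has. The package data.table (1.17.8) read the files.

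The 7 genes and all lists were chosen with earlier results of these data known, so no list is independent evidence. All 7 genes are named, with the 4 brightest of each other lens list, any listed gene called against most of its list, and the 5 probes most like the members, other names being marked as chosen later. Markers of tissues around the lens are given as counts and sums, from the same lists, and some listed items are not reported here.

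On simulated data with 200 of 21768 probes lowered by 1 on the log2 scale, the fit found 90.5% for females and 77.5% for males, with 8 and 7 false calls. The simulated noise was independent between probes and eyes and held no slide effect. It therefore cannot show how many calls in the real data are false. Alternatives were other normalizations, filters, arrays, blocks and tests, and leaving out each eye of the groups of 3.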

Additional observations from a re-analysis of the deposited data

How the results depend on the processing

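The 5 genes that passed the minimum were below WT females in each of the 29 alternatives, Mip with a log2 difference of only -0.02 in the unnormalized series table (limma adjusted p = 0.952) and Gja3 with -0.44 when the slide was a block, and 4 were called lower with each normalization and filter tried, with 1 array per eye and without any WT male or Ftx KO male eye. The female log2 difference could not change with the probe filters, with a male eye left out or with only the groups compared. Nor could it with limma and the fold limits, so its sign in all of these was fixed in advance. The number lower was 0 with the slide as a block and 0 with the scan as a block, 5 with a replicate block, and 3 to 4 when an eye of a group of 3 was left out. The number that differed between Ftx KO females and Ftx KO males, 3, was 0 with the unnormalized series table, 1 with only the groups compared, 0 with the slide and 1 with the scan as a block, 0 with a replicate block, 0 to 3 when an eye of a group of 3 was left out, and, in alternatives chosen after seeing the data, 0 without the Ftx KO females of slide 3 and 0 with those of slide 2 only. The number whose change differed between the sexes was 4 by limma with the fold limits and unadjusted p. Before any fold limit, 2920 of all 21794 probes had an unadjusted p under 0.05 in that test. For the filters, the left-out eyes and the replicate block, the share of all probes called was not counted. The median male change was -0.18 with the series table and -0.20 with the slide or the scan as a block. The series table moved the median of all probes to 0.22 in females and -0.11 in males, and 89.9% of its female calls were higher, against 50.7%. Taking the median over a gene's probes changed nothing, since each member has 1 probe. The cause of these shifts was not tested.

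Same-numbered eyes did not deviate together (r between -0.22 and 0.08 over probes), so the eyes share a number only and the replicate block is not a paired analysis of related eyes. With it Mip differed by -0.39 in females (limma adjusted p = 0.0428).

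With 3 WT female eyes on a slide apart from all Ftx KO females, genotype and slide cannot be told apart in females without the 3 Ftx KO males. The probes report relative signal in whole eyes, Lgsn had no measurable level, and Birc7 was dim.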
